A study of Homo sapiens with 6 samples.

Results

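The plexin and neuropilin genes were examined in RNA-seq libraries of 2 cell lines from human prostate cancer. The 10 members are the rows of the deposited expression table whose Ensembl gene identifiers carry the symbols PLXND1, PLXNA1, PLXNA2, PLXNA3, PLXNB1, PLXNB2, PLXNB3, PLXNC1, NRP1 and NRP2 in GENCODE release 29, and they are 10 of 58735 genes in the table. The rule that picks them uses the gene names and no measured value, but the members were chosen with earlier results of these data known. C4-2B MDVR is a derivative of C4-2B resistant to enzalutamide, a hormone therapy drug, and H660 (NCI-H660) represents the neuroendocrine form of the disease. For either line there was 1 control siRNA library and 2 PLXND1 knockdown libraries, made with siRNA 1 and siRNA 2, and 3 values of a line are given below in the order control, siRNA 1, siRNA 2. Either disease type is represented by a single cell line, and each siRNA by 1 library in each line. Levels are in FPKM (fragments per kilobase of exon, scaled to the fragments of the library), a scale per gene length on which genes can be compared with each other.

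Plexins are single-pass receptors for semaphorins, the guidance cues first known for steering growing axons and blood vessels. Their extracellular sema domain binds the ligand, and their intracellular part holds a GAP domain that switches off small GTPases of the R-Ras and Rap families. Type A plexins bind most secreted class 3 semaphorins together with a neuropilin, which binds the ligand but has little signalling of its own. Type B plexins bind class 4 semaphorins directly, couple to RhoA through PDZ-RhoGEF and LARG and associate with MET and ERBB2. PLXNC1 binds SEMA7A, and PLXND1, best known from blood vessel patterning, binds SEMA3E without a neuropilin.

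In the C4-2B MDVR libraries the luminal prostate markers were all present and in H660 the neuroendocrine ones. All 9 luminal markers averaged at least 1 FPKM in C4-2B MDVR, with a summed level of 835 to 1681 FPKM, against 2 of 9 (KRT8 and KRT18, general epithelial keratins) in H660, where 2 of the 9 were at 0 in every library. All 9 neuroendocrine markers averaged at least 1 FPKM in H660 (907 to 942 FPKM summed), against 1 of 9 in C4-2B MDVR (4.64 to 5.91 FPKM), where INSM1 and CHGB were at 0. Of 5 endothelial markers, CDH5 was above 1 FPKM in H660 (7.42 to 9.93 FPKM) and the others averaged below 1 FPKM in both lines. All 4 leukocyte markers averaged below 1 FPKM in both lines, as did 4 of 5 fibroblast markers, all but COL1A1. The libraries held 17655802 to 24105369 fragments in genes. Mitochondrial genes took 3.38% of all fragments for the C4-2B MDVR control siRNA and 6.83% to 9.64% in the other 5 libraries. The C4-2B MDVR knockdown values below all rest on that control. The part of its low mitochondrial share in them was not tested beyond a rescaling without mitochondrial genes and short RNAs, given for some members.

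PLXND1 (ENSG00000004399), PLXNA1 (ENSG00000114554) and PLXNB1 (ENSG00000164050) lie on chromosome 3 of GRCh38, at 129555175 to 129606818, 126988594 to 127037392 and 48403854 to 48430051. PLXNA2 (ENSG00000076356) lies on chromosome 1 at 208022242 to 208244320, PLXNB2 (ENSG00000196576) on chromosome 22 at 50274979 to 50307627 and PLXNC1 (ENSG00000136040) on chromosome 12 at 94148723 to 94307675. PLXNA3 (ENSG00000130827) and PLXNB3 (ENSG00000198753) lie on chromosome X at 154458281 to 154477779 and 153764196 to 153779346. NRP1 (ENSG00000099250) lies on chromosome 10 at 33177492 to 33336262 and NRP2 (ENSG00000118257) on chromosome 2 at 205681990 to 205798133. All are protein-coding, with a summed exon length of 7007 (PLXNB3) to 13896 bases (NRP2). PLXNB3 shares 1432 of its exon bases (20.4%) with SRPK3, a kinase gene on the same strand that averaged 0.57 FPKM, so its reads may in part be counted for either gene. The exons of PLXNC1 overlap those of CEP83, on the opposite strand, by 177 bases, and those of PLXNA3 overlap LAGE3 by 11. The libraries' strand setting is not given in the sources used here.

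The sequences before the RefSeq starts are shown for PLXND1, the knockdown target, and for PLXNA2, NRP2 and PLXNB3, the members with the largest differences between the lines. Each is the 250 bases before the RefSeq start in GRCh38.p14, 5′ to 3′ on the strand of the gene, and capitals mark GC boxes (GGGCGG on either strand, overlapping matches included), a motif of Sp1-type factors. The windows are chr3:129606677-129606926 on the minus strand for PLXND1, chr1:208244385-208244634 on the minus strand for PLXNA2, chr2:205682251-205682500 on the plus strand for NRP2 and chrX:153763999-153764248 on the plus strand for PLXNB3. The RefSeq start lies inside the GENCODE gene by 142 bases for PLXND1, 511 for NRP2 and 53 for PLXNB3, and outside it for PLXNA2. The NRP2 window thus lies wholly within the gene coordinates given above, and those of PLXND1 and PLXNB3 in part.
PLXND1: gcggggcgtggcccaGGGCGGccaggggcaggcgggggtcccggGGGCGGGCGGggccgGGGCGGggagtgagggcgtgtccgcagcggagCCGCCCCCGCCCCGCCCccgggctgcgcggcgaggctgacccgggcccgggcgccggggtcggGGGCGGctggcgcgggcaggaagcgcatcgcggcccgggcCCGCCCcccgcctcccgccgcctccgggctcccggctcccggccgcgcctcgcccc
PLXNA2: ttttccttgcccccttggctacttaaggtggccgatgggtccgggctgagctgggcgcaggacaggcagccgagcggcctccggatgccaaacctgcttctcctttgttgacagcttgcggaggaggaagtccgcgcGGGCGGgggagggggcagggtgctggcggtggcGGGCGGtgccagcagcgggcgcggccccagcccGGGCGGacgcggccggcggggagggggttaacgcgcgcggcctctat
NRP2: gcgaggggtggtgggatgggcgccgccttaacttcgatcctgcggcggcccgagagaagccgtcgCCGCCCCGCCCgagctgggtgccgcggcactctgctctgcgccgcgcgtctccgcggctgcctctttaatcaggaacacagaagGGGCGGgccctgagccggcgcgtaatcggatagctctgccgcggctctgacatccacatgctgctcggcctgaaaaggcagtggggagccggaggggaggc
PLXNB3: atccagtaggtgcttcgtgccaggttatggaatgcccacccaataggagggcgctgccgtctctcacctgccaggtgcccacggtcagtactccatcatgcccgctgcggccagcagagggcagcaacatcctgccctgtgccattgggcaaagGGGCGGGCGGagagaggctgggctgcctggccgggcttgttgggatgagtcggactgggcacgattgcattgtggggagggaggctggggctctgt

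All 4 windows hold GC boxes: 9 matches for PLXND1, 3 each for PLXNA2 and NRP2 and 2 for PLXNB3. GC boxes are in 42.6% of the 35116 windows of the same length in the table. G and C made up 88.8% of the PLXND1 window, 72.4% of that of PLXNA2, 70.0% of that of NRP2 and 64.4% of that of PLXNB3, against a median of 58.0% over all windows. RefSeq windows were found for 9 of the 10 members.

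The most abundant member in both lines was PLXNB2, a type B plexin that binds class 4 semaphorins. It stood at 95.1, 134 and 114 FPKM in C4-2B MDVR and at 44.2, 40.1 and 38.2 FPKM in H660. No other member overlapped it in either line. In C4-2B MDVR the order by mean level went on with PLXNA1 (9.77 to 10.8 FPKM), PLXNB3 (6.95 to 13.9), PLXNB1 (5.0 to 7.95), PLXNA3 (3.51 to 4.83), PLXND1 (1.57 to 7.40) and NRP1 (1.18 to 3.41). Of neighbours in this order, the ranges of PLXNA1 and PLXNB3, of PLXNB3 and PLXNB1, of PLXNA3 and PLXND1, and of PLXND1 and NRP1 overlapped. The wide range of PLXND1 also overlapped those of PLXNB1 and PLXNB3. These ranges span the control and the 2 PLXND1 knockdown libraries, which are not replicates of a single condition. In the control alone PLXND1 stood at 7.40 FPKM, below PLXNB3 (8.65) and above PLXNB1 (5.95), PLXNA3 (3.51) and NRP1 (1.18). The lowest were PLXNC1 (0.06 to 0.23 FPKM), NRP2 (0.06 to 0.12) and PLXNA2 (0 to 0.03), with PLXNC1 and NRP2 overlapping.

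In H660 the order after PLXNB2 was PLXNB1 (20.2 to 22.6 FPKM), PLXNA2 (11.5 to 14.8), PLXNA1 (8.73 to 10.4), PLXND1 (7.54 to 9.13), PLXNA3 (4.60 to 6.04), NRP2 (4.74 to 5.39), NRP1 (1.94 to 2.52), PLXNB3 (0.63 to 0.85) and PLXNC1 (0.11 to 0.17). Here the overlapping neighbours were PLXNA1 with PLXND1 and PLXNA3 with NRP2. The ranges of all other neighbours in this order were apart. PLXNA4, the remaining human plexin gene and not a member, had 2 to 3 fragments a library in C4-2B MDVR and 0 in H660, which allows up to 0.0078 FPKM there (3 fragments).

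**Figure D1:**
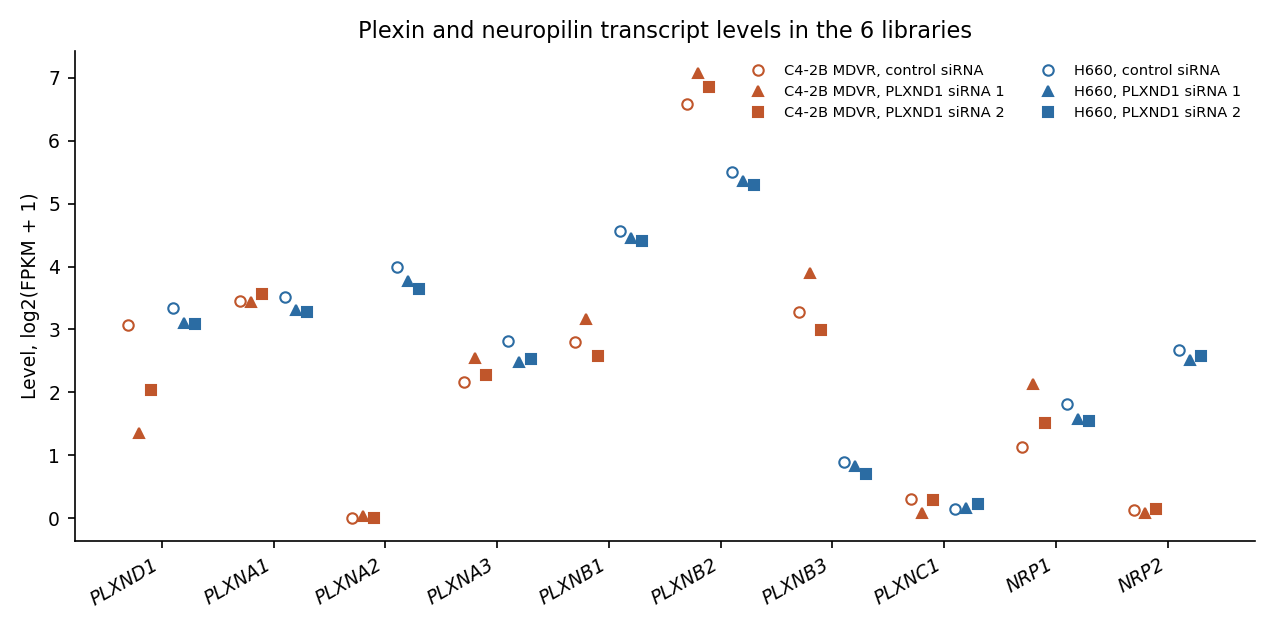
Level of each plexin and neuropilin gene on the log2(FPKM + 1) scale (vertical axis) in each of the 6 libraries, with C4-2B MDVR in orange and H660 in blue, open circles for the control siRNA and filled triangles and squares for PLXND1 siRNA 1 and siRNA 2. PLXNA2 and NRP2 sat near 0 in C4-2B MDVR and above 2 in H660, PLXNB3 and PLXNB2 sat higher in C4-2B MDVR, and PLXND1 was lowest in the 2 C4-2B MDVR knockdown libraries.

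The lines were compared with limma on log2(FPKM + 1), in a fit of line and treatment over all 6 libraries, among 15638 genes that averaged at least 1 FPKM in at least 1 line. A gene was called at a Benjamini-Hochberg adjusted p under 0.05 and at least a 2-fold difference. The fit held 9 members, all but PLXNC1, and 6 of them were called, 4 higher in H660 and 2 lower. Of all genes tested, 20.1% were called higher in H660 and 17.9% lower. PLXNA2, NRP2 and PLXNB3 passed the filter through 1 line only, where they are high, so that they had to differ and add nothing to that count. Of the other 6, PLXNB1, PLXNB2 and PLXND1 were called.

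PLXNA2, a type A plexin that pairs with neuropilins, had the largest difference among the members. It was covered by 1, 9 and 0 fragments in C4-2B MDVR and by 5064, 4103 and 4066 in H660, where it stood at 14.8, 12.7 and 11.5 FPKM. The 0 fragments with siRNA 2 allow up to 0.0134 FPKM (3 fragments). Its log2 difference was 3.78 ± 0.12 (SE; limma adjusted p = 4.28e-06), a scale that understates it since 1 is added to a level near 0. PLXNA2 made up 12.5% to 13.7% of the summed plexin FPKM in H660 and at most 0.0189% in C4-2B MDVR.

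NRP2, the neuropilin that binds SEMA3F and VEGFC, was nearly absent from C4-2B MDVR. It had 29, 17 and 26 fragments there (0.101, 0.0607 and 0.115 FPKM) and 5.39, 4.74 and 4.96 FPKM in H660, with a log2 difference of 2.46 ± 0.11 (limma adjusted p = 1.27e-05). NRP1, the neuropilin that binds SEMA3A and VEGFA, was present in both lines, at 1.18, 3.41 and 1.85 FPKM in C4-2B MDVR and 2.52, 1.98 and 1.94 FPKM in H660. The lines overlapped for NRP1, and the difference was 0.05 ± 0.26 (limma adjusted p = 0.862). That fit pools knockdown libraries that lay above the control in C4-2B MDVR and below it in H660. Between the controls alone NRP1 was higher in H660 by 0.69, with 1 library a line. NRP1 thus gave 92.2% of the summed neuropilin FPKM in the C4-2B MDVR control and 31.8% in the H660 control.

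The 3 type B plexins differed in both directions. PLXNB1, the SEMA4D receptor, was at 5.95, 7.95 and 5.0 FPKM in C4-2B MDVR and at 22.6, 20.9 and 20.2 FPKM in H660, a log2 difference of 1.62 ± 0.17 (limma adjusted p = 0.000313). PLXNB2 was lower in H660, at −1.45 ± 0.15 (limma adjusted p = 0.000325). PLXNB3, which binds SEMA5A, was at 8.65, 13.9 and 6.95 FPKM in C4-2B MDVR and at 0.853, 0.771 and 0.626 FPKM in H660, at −2.58 ± 0.24 (limma adjusted p = 0.000204).

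PLXNA1 and PLXNA3, type A plexins, did not pass. PLXNA1 was at 9.95, 9.77 and 10.8 FPKM in C4-2B MDVR and 10.4, 8.88 and 8.73 FPKM in H660 (−0.11 ± 0.11, limma adjusted p = 0.391), and the direction turned to 0.15 when mitochondrial genes and short RNAs were left out and the libraries rescaled. PLXNA3 was at 3.51, 4.83 and 3.83 FPKM in C4-2B MDVR and 6.04, 4.60 and 4.77 FPKM in H660 (0.28 ± 0.16, limma adjusted p = 0.154). With the rescaling the PLXNA3 difference was 0.52 (limma adjusted p = 0.0190), by voom 0.52 (adjusted p = 0.0219) and between the controls alone 0.64, all under 2-fold, and with 1 library left out it was 0.10 to 0.41. PLXNC1 was below the filter, with 12 to 48 fragments a library. PLXND1 was called higher in H660 (1.02 ± 0.28, limma adjusted p = 0.0183), but the 2 C4-2B MDVR knockdown libraries lie behind most of it. Between the control libraries alone PLXND1 differed by 0.27, at 7.40 and 9.13 FPKM. It lost its call when C4-2B MDVR knockdown replicate 1 was left out (0.72, under 2-fold) and when H660 knockdown replicate 1 (adjusted p = 0.0811) or 2 (0.0801) was. The rescaling moved the median line difference of all genes from −0.0035 to 0.26, and PLXNA2, NRP2, PLXNB1, PLXNB2 and PLXNB3 kept their call and direction under every alternative tested. PLXNA2, NRP2 and PLXNB3 passed the filter through 1 line only, so their kept calls add nothing to those of PLXNB1 and PLXNB2.

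**Figure D2:**
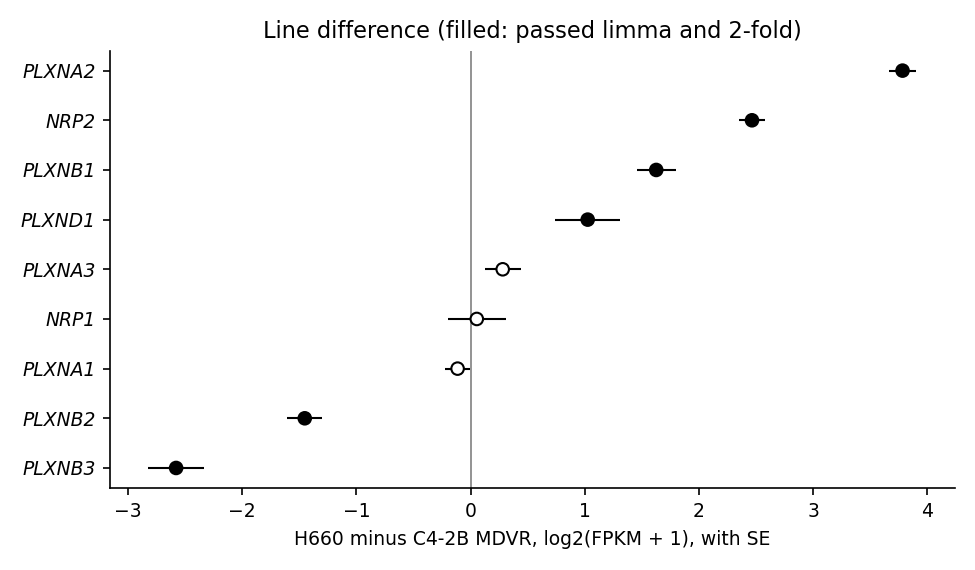
Difference between H660 and C4-2B MDVR on the log2(FPKM + 1) scale (horizontal axis) for the 9 members tested, with bars for the standard error of the limma fit and filled points for members called at an adjusted p under 0.05 and 2-fold. PLXNA2, NRP2, PLXNB1 and PLXND1 lie to the right, at 3.78, 2.46, 1.62 and 1.02, and PLXNB2 and PLXNB3 to the left, at −1.45 and −2.58.

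The knockdown of PLXND1 was read first in its own transcript. In C4-2B MDVR it was at 7.40 FPKM in the control, 1.57 with siRNA 1 and 3.10 with siRNA 2, from 1495, 308 and 490 fragments. Both knockdown libraries were far below the control, and fewer cells with the transcript and less of it per cell cannot be told apart in such bulk RNA. With siRNA 2 the level was 1.97 times that with siRNA 1 (95% interval 1.71 to 2.28, exact binomial, as for all intervals on ratios here, which cover counting error only). In H660 PLXND1 was at 9.13, 7.62 and 7.54 FPKM, with both siRNAs close to each other (0.99 times, 0.927 to 1.06) and at 83.5% and 82.6% of the control. PLXND1 made up 5.66% of the summed plexin FPKM in the C4-2B MDVR control and 0.915% and 2.15% with the siRNAs. In H660 these shares were 8.44%, 7.97% and 8.23%.

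The level of PLXND1 was next set against the other plexins of the same library, a ratio that no scaling of the library can change. In C4-2B MDVR the fragments of PLXND1 per fragment of the other 7 plexins were 0.156 times the control with siRNA 1 (0.137 to 0.176) and 0.368 times with siRNA 2 (0.331 to 0.408). In H660 they were 0.946 times with siRNA 1 (0.886 to 1.01) and 0.982 times with siRNA 2 (0.92 to 1.05). Both H660 intervals include 1, so that a fall of PLXND1 beyond that of the other plexins was not detectable there at this depth, and the lower bounds were 0.886 and 0.92 times. Against single plexins the H660 values lay on either side of 1. They were 0.98 (0.901 to 1.07) and 0.986 (0.908 to 1.07) against PLXNA1, 0.978 (0.906 to 1.06) and 1.07 (0.993 to 1.15) against PLXNA2, and 1.10 (0.994 to 1.21) and 1.05 (0.952 to 1.15) against PLXNA3. Against PLXNB1 they were 0.903 (0.838 to 0.972) and 0.927 (0.861 to 0.997), and against PLXNB2 0.92 (0.857 to 0.988) and 0.956 (0.891 to 1.02). Both intervals against PLXNB1 and the siRNA 1 interval against PLXNB2 thus lay below 1, and the others include it.

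**Figure D3:**
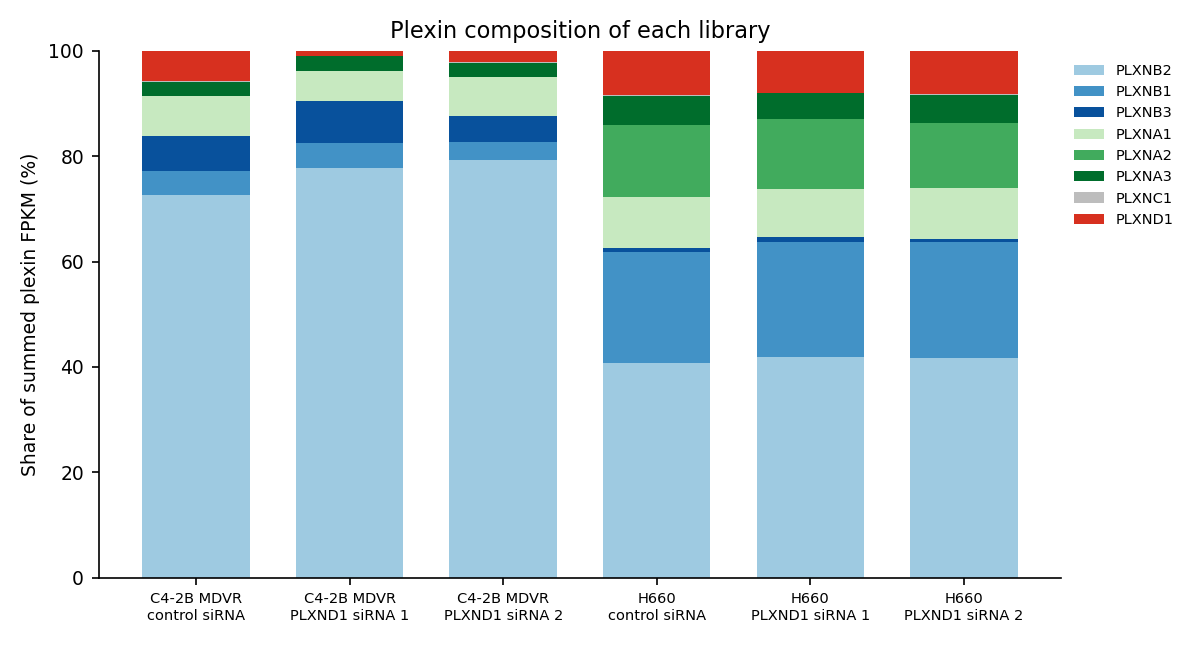
Share of each plexin in the summed plexin FPKM (vertical axis, percent) of each of the 6 libraries, with type B plexins in blue, type A in green, PLXNC1 in grey and PLXND1 in red. The red share went from 5.66% in the C4-2B MDVR control to 0.915% and 2.15% with the siRNAs and lay between 7.97% and 8.44% in the 3 H660 libraries, and PLXNB2 took 72.7% to 79.3% in C4-2B MDVR and 40.8% to 41.9% in H660.

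None of the members passed the limma test for the knockdown in C4-2B MDVR, in H660, in both lines together or for the difference of the effect between the lines. The share of all 15638 genes called was 0.00% in each of these 4 tests. At an unadjusted p under 0.05 there were 921, 647, 654 and 701 genes, and voom on recovered fragments also called 0 in each, with 988, 500, 752 and 753 at that level. In these fits a line has a lone control, assumed to vary like the knockdown pairs. Separate cultures are not named in the labels, so p-values measure only the spread between these libraries, part of which may be technical. In the fits of 4 group means this spread is the gap between the siRNA 1 and siRNA 2 libraries, pooled over both lines. It therefore holds any difference between the 2 siRNAs. For PLXND1 the level with siRNA 2 was 1.97 times that with siRNA 1 in C4-2B MDVR and 0.99 times in H660, and both lines share the pooled SE. PLXND1 itself was at −1.37 ± 0.31 (SE) in C4-2B MDVR (limma adjusted p = 0.711) and −0.24 ± 0.31 in H660 (limma adjusted p = 1). The knockdown values that follow are therefore ratios of single libraries.

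In C4-2B MDVR, PLXND1 was the only 1 of the 9 members below the control beyond counting error with both siRNAs, and PLXNB2 and NRP1 were the 2 above it. For a gene to count here, the 95% intervals of both ratios had to lie on the same side of 1. Of all genes tested, 9.47% lay below by this rule and 14.8% above, so that the 2 of 9 members above are near the share of all genes. Both ratios share the control library.

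Among the members with more than 3 fragments in each library, NRP1 had the highest ratio. Its 1.18 FPKM in the control (283 fragments) stood against 3.41 with siRNA 1, at 288% of the control (251% to 331%), and 1.85 with siRNA 2, at 157% (133% to 184%). Both knockdown libraries lay above the control and apart from each other, siRNA 2 at 0.544 times siRNA 1 (0.478 to 0.618). The limma value was 0.70 ± 0.30 (adjusted p = 0.87). PLXNB2 was at 141% of the control with siRNA 1 (138% to 144%) and 120% with siRNA 2 (118% to 123%), with a limma value of 0.38 ± 0.17 (adjusted p = 0.892). Scaled by total fragments instead, PLXNB2 was at 129% and 109% and NRP1 at 263% and 142%. With mitochondrial genes and short RNAs left out and the libraries rescaled, PLXNB2 was at 134% and 110% and NRP1 at 274% and 144%.

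Other members differed between the 2 siRNAs. PLXNB3 was at 160% of the control with siRNA 1 (149% to 172%) and 80.4% with siRNA 2 (73.5% to 87.9%). PLXNB1 was at 134% (124% to 144%) and 84.1% (76.8% to 92.0%). For both genes siRNA 1 lay above the control and siRNA 2 below it, each beyond counting error, and siRNA 2 left 0.501 times and 0.63 times the level of siRNA 1. With the rescaling PLXNB3 was at 153% and 73.7% and PLXNB1 at 127% and 77.1%. PLXNA3 was at 138% with siRNA 1 (126% to 150%) and 109% with siRNA 2 (98.7% to 121%). PLXNA1 was the steadiest, at 98.2% (92.5% to 104%) and 109% (102% to 116%), the latter 99.0% when scaled by total fragments. NRP2 was at 60.3% (31.1% to 114%) and 114% (64.7% to 201%), within counting error at 17 to 29 fragments. PLXNC1 had 48 fragments in the control, 12 with siRNA 1 (25.7%, 12.4% to 49.2%) and 36 with siRNA 2 (95.7%, 60.4% to 151%). PLXNA2 had 1, 9 and 0 fragments, and siRNA 1 was at 927% of the control with a counting interval of 128% to 40612%. The 7 plexins besides PLXND1 summed to 123 FPKM in the control and to 170 and 141 FPKM with the siRNAs, and without PLXNB2 to 28.3, 36.5 and 26.8 FPKM.

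In H660 the members lay below the control together. Of the 9 members tested, 8 were below it beyond counting error with both siRNAs, against 15.7% of all genes, and 0 were above it, against 15.0% of all genes. The exception was PLXNB3, from 148, 127 and 113 fragments, at 90.4% (70.7% to 115%) and 73.4% (56.9% to 94.4%). Counting intervals narrow with more fragments, so genes with many fragments pass this rule at smaller changes. The part of fragment number in these counts was not tested. The median of the 9 limma values was −0.22, with a range of −0.31 to −0.13, against −0.01 over all genes tested. The shared control enters every one of these ratios.

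PLXND1, the target of the siRNAs, lay within the range of the other members. Its level, at 83.5% (78.3% to 88.9%) and 82.6% (77.6% to 87.9%) of the control, lay among those of the type A plexins. PLXNA3 was at 76.2% (70.8% to 82.0%) and 79.0% (73.6% to 84.7%), and PLXNA1 at 85.2% (80.6% to 90.0%) and 83.8% (79.3% to 88.5%). PLXNA2 was at 85.3% (81.9% to 89.0%) with siRNA 1 and 77.1% (74.0% to 80.4%) with siRNA 2. NRP1, at 78.5% (70.0% to 87.9%) and 76.9% (68.8% to 86.0%), had intervals overlapping those of PLXND1, and NRP2 was at 87.8% (82.1% to 94.0%) and 91.9% (86.1% to 98.2%). Of the type B plexins, PLXNB1 was at 92.5% (88.9% to 96.1%) and 89.1% (85.8% to 92.6%) and PLXNB2 at 90.7% (87.8% to 93.7%) and 86.4% (83.7% to 89.3%). PLXNC1, with 28, 28 and 44 fragments, was at 105% (60.1% to 185%) and 151% (91.9% to 252%).

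The 9 members are long and mostly rich in G and C, and genes like them also tended to be lower in the H660 knockdown libraries. The G and C content of their longest transcripts ran from 44.7% (NRP1) to 65.1% (PLXNB3), with 63.5% for PLXND1. Of the 1580 tested genes within the members' range of exon length and G and C content, 43.4% were below the H660 control beyond counting error with both siRNAs, with a median of −0.12. Of the 622 within the narrower range of the 7 plexins tested, the share was 49.2% and the median −0.13. Within the length range alone the share was 25.9% and the median −0.04, and within the G and C range alone they were 21.5% and −0.06. In C4-2B MDVR the shares of the same 1580 and 622 genes were 10.8% and 10.5%, near the 9.47% of all genes. These ranges were chosen after the members' values were seen, and the part of length and base composition in the members' values was not tested.

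**Figure D4:**
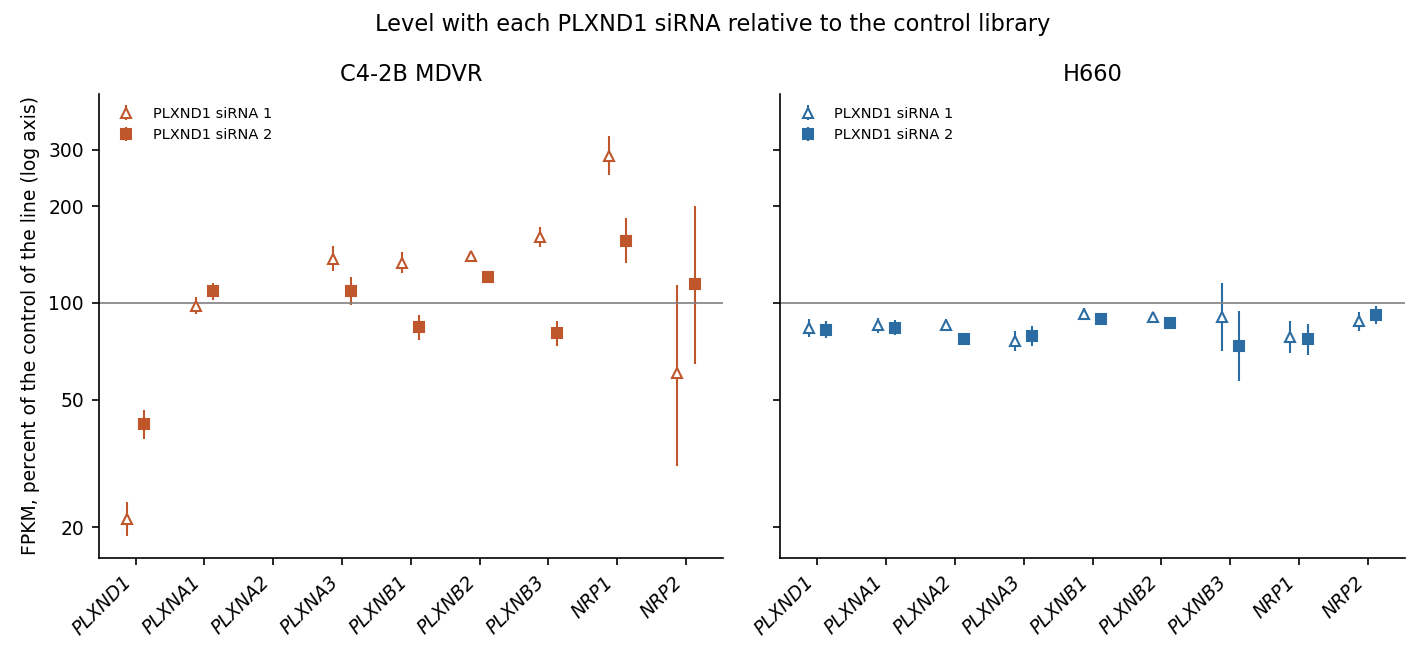
FPKM with each PLXND1 siRNA as a percent of the control library of the same line (vertical axis, log scale), for C4-2B MDVR (left) and H660 (right), with open triangles for siRNA 1, filled squares for siRNA 2 and bars for 95% exact binomial intervals that cover counting error only. PLXNC1, which was below the filter of the fits, and PLXNA2 in C4-2B MDVR, for its few fragments, are left out. PLXNC1 was at 25.7% (12.4% to 49.2%) and 95.7% in C4-2B MDVR and at 105% and 151% in H660. In C4-2B MDVR PLXND1 lies at 21.2% and 41.8% and the other genes shown from 60.3% to 288%, and in H660 all 9 genes shown lie from 73.4% to 92.5%.

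The difference of the knockdown effect between the lines was at 1.13 ± 0.44 for PLXND1 (limma, adjusted p = 0.985) and below 0 for the 8 other members tested. Of all 15638 genes tested, 8433 were below 0. The values of the 8 members ran from −0.95 ± 0.42 for NRP1 to −0.11 ± 0.22 for NRP2, and none passed. The median over the 9 members was −0.30, against −0.03 over all genes tested. The sign for PLXNB1 and PLXNB3 turned without C4-2B MDVR knockdown replicate 1 (0.08 and 0.15), and that for NRP2 turned by voom (0.24). For NRP2 the sign on the log2(FPKM + 1) scale also depends on the 1 added to its levels near 0 in C4-2B MDVR.

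The ligands and partners of these receptors were read from fixed lists, also chosen with earlier results of these data known. Of 20 semaphorins, 16 were tested, and by limma 4 were higher and 7 lower in H660, against 20.1% and 17.9% of all genes tested. The same shares stand behind the counts of the other lists below. The highest were SEMA3F, a ligand of NRP2 (28.2, 61.3 and 41.4 FPKM in C4-2B MDVR; 5.04, 3.11 and 4.35 FPKM in H660), SEMA4B (6.82, 9.45 and 6.85; 29.3, 25.8 and 25.8 FPKM) and SEMA4C, a PLXNB2 ligand (5.28, 5.30 and 5.53; 17.1, 16.3 and 18.4 FPKM). SEMA3F was thus higher in the line where NRP2 was near 0. Of 11 co-receptors and partners, 5 were tested, 3 higher and 1 lower in H660. ERBB2, a partner of type B plexins, was at 45.2, 75.4 and 41.8 FPKM in C4-2B MDVR and 5.38, 4.71 and 5.47 FPKM in H660, and the adhesion gene NRCAM, whose product joins neuropilin complexes, was at 0, 0 and 0.0075 FPKM against 13.7, 17.7 and 15.2 FPKM, so that NRCAM passed the filter through H660 only. ITGB1, the beta 1 integrin, was at 47.4 to 52.2 FPKM in C4-2B MDVR and 76.6 to 84.0 FPKM in H660, under 2-fold apart.

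Of 5 growth factors of the neuropilins, 3 were tested, 1 higher and 1 lower in H660. VEGFB, which binds NRP1, was at 1.47, 0.675 and 0.638 FPKM in C4-2B MDVR and 49.7, 43.8 and 42.2 FPKM in H660, and it also passed the filter through H660 only. VEGFA was at 34.1, 106 and 35.3 FPKM in C4-2B MDVR and 14.8, 18.8 and 23.0 FPKM in H660, so that siRNA 1 stood apart from the other C4-2B MDVR libraries. PGF, the placental growth factor, was at 0.413, 0.991 and 1.83 FPKM and 0.373, 0.428 and 0.443 FPKM. Of 32 intracellular effectors, 30 were tested, 9 higher and 7 lower in H660. Of these, RRAS, the GTPase on which the plexin GAP domain acts, was at 59.9, 110 and 78.2 FPKM in C4-2B MDVR and 7.83, 7.56 and 7.60 FPKM in H660. RHOA (114 to 173 and 163 to 177 FPKM) and RAC1 (73.0 to 96.6 and 88.0 to 93.0 FPKM) overlapped between the lines. By limma 0 members of these 4 lists passed for the knockdown in either line (the share of all genes is 0.00% there too). The H660 medians of these lists were −0.10 for semaphorins, −0.07 for partners, 0.06 for growth factors and −0.12 for effectors, against −0.01 for all genes.

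Among 9868 protein-coding genes that averaged at least 1 FPKM in both lines, those whose log2(FPKM + 1) followed PLXND1 most closely over the 6 libraries were ARHGAP21, CDC20 and SSRP1. ARHGAP21, which encodes a GTPase-activating protein, was at 7.27, 4.04 and 5.22 FPKM in C4-2B MDVR and 8.09, 7.82 and 7.52 FPKM in H660 (Pearson r = 0.997). CDC20, which activates the anaphase-promoting complex, was at 86.7, 51.6 and 59.6 FPKM and 98.2, 85.1 and 85.9 FPKM (r = 0.992), and SSRP1, of the FACT histone chaperone, at 38.8, 26.1 and 32.0 FPKM and 42.3, 38.6 and 37.7 FPKM (r = 0.988). These correlations are descriptions over 6 libraries from 2 lines, picked as the highest of 9868. Of the other members in this set, PLXNB1 had an r of 0.63, PLXNA3 of 0.20, PLXNA1 of −0.31, NRP1 of −0.55 and PLXNB2 of −0.82.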

How the data were processed

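Per the labels' protocols, the 6 libraries were mRNA-Seq with paired reads of 150 bases. HISAT, Cufflinks and the build hg18 are named without versions or roles, per the submitters' processing notes. The authors deposited FPKM values for 58735 Ensembl gene IDs, all of which are in GENCODE release 29 (GRCh38), the source of names, lengths and coordinates. FPKM times exon length was a whole multiple of 1 step per library (tolerance 0.05 fragments, genes of up to 100 fragments, 100% of them). Fragments were recovered from that step for intervals. From this step, library totals came out at 0.92 to 1.08 times the sum of recovered fragments, a factor whose source is not given in the sources used here. It was 1.01 for the C4-2B MDVR control, 0.926 and 0.920 for the knockdown libraries of that line and 1.07 to 1.08 in H660. Ratios of FPKM to the C4-2B MDVR control are thus higher than those scaled by total fragments. The counting intervals and the shares of genes above and below a control use the FPKM scale.

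The tests used limma 3.58.1 under R 4.3.3 on log2(FPKM + 1) (intensity trend, two-sided, Benjamini-Hochberg over 15638 genes, threshold 0.05). Knockdown in both lines and the line difference came from an additive fit (3 residual degrees of freedom), the rest from 4 group means (2 residual degrees of freedom). The fits were tested on simulated data. Alternatives were a pseudocount of 0.1, no filter, quantile normalization, rescaling without mitochondrial genes and short RNAs, voom, no trend, a replicate block and leaving out libraries. All members were named, the 3 most abundant genes of each list, and the 3 genes most like PLXND1. The members and lists were chosen with earlier results of these data known.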

Additional observations from a re-analysis of the deposited data

Results flagged for a closer look

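For 4 members both C4-2B MDVR knockdown libraries lay on one side of their control and both H660 knockdown libraries on the other. Such sides are common at any size. Of all genes tested, 32% were higher and 25.8% lower with both siRNAs in C4-2B MDVR, and 32.1% and 38.3% in H660. The share of all genes on opposite sides in the lines was not counted, so the members are not set apart by this. For NRP1 the difference of the effect (H660 minus C4-2B MDVR, log2(FPKM + 1)) was −0.95, for PLXNB2 −0.55 and for PLXNA3 −0.54. In the limma fit of 4 groups each of these 3 differences had an adjusted p of 0.985 and did not pass. PLXNA3 with siRNA 2 in C4-2B MDVR was within counting error of the control and at 99.2% of it when scaled by total fragments. For PLXNC1 the difference was 0.16, lower with the siRNAs in C4-2B MDVR and higher in H660. It was not tested, since PLXNC1 was below the filter, and it rests on 12 to 48 fragments a library.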

How the results depend on the processing

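The line differences of PLXNA2 (3.68 to 10.9 over 14 alternatives), NRP2 (2.22 to 5.97), PLXNB1 (1.48 to 1.95), PLXNB2 (−1.64 to −1.09) and PLXNB3 (−3.49 to −2.29) kept their direction in all of them and their call in all with a test. For PLXNA2, NRP2 and PLXNB3, which passed the filter through 1 line only, the kept calls add no support. The line difference of PLXND1 ran from 0.27 to 1.40 and also lost its call with no filter (adjusted p = 0.0528) and with quantile normalization (0.98, under 2-fold). The number of genes called for the line difference, 5946, was 5851 to 6028 with any 1 library left out and stayed within 1.5 times otherwise. For the knockdown, the count of 0 genes became 851 in C4-2B MDVR, 876 in H660 and 1372 for the difference between the lines with no filter. It became 1 in H660 with a pseudocount of 0.1 and with quantile normalization, and 2 in C4-2B MDVR with the rescaling. It stayed at 0 with any 1 knockdown library left out. The cause of these changes was not tested. In a fit with a replicate block for siRNA 1 and siRNA 2 the count was 1 in H660, 0 in the other knockdown tests and 5993 for the line difference. The deviations of same-numbered libraries had a correlation of −0.0043 over genes, and the numbers name siRNAs and pair nothing else.

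Small values of members that had not passed turned sign. For the knockdown in both lines PLXNB3 (0.02) went to −0.040 with a pseudocount of 0.1, −0.028 with the rescaling and −0.021 by voom. In C4-2B MDVR, PLXNA1 (0.04) went to −0.013 with quantile normalization, −0.045 with the rescaling and −0.084 by voom, and PLXNB1 (0.08) to −0.0062 and −0.038 with the last 2. The line difference of PLXNA1 (−0.11) was 0.15 with the rescaling, 0.050 by voom and 0.062 between the controls alone, and that of NRP1 (0.05) was −0.17 with quantile normalization. The difference of the effect for NRP2 was 0.24 by voom. PLXNA1 with siRNA 2 in C4-2B MDVR was at 99.0% of the control by total fragments and 99.8% with the rescaling. As FPKM, by total fragments or with the rescaling, PLXND1 was at 19.4% to 41.8% of the control in C4-2B MDVR and at 80.5% to 83.7% in H660. With 1 library left out, the ranges that crossed 0 were, for the knockdown in both lines, PLXNB3 (−0.19 to 0.19), PLXNB1 (−0.17 to 0.080) and PLXNA3 (−0.13 to 0.011); in C4-2B MDVR, PLXNA1 (−0.024 to 0.11), PLXNA2 (−0.0050 to 0.041), PLXNB1 (−0.21 to 0.36), PLXNB3 (−0.28 to 0.62) and NRP2 (−0.053 to 0.019); for the difference between lines, PLXNB1 (−0.50 to 0.078) and PLXNB3 (−0.75 to 0.15); and NRP1 for the line difference (−0.26 to 0.32).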
